A study of Rattus norvegicus with 18 samples.

Results

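Nhlh1 and 8 other genes of neurogenic transcription and newborn neurons were followed in the dorsal hippocampus of rats fed ethanol and withdrawn from it. The 9 genes, Nhlh1, Nhlh2, Neurod1, Neurod2, Neurod6, Eomes, Dcx, Sox11, and Igfbpl1, were chosen by symbol among the 38445 genes counted. All 9 passed the filter on low counts and were among the 17853 genes tested, although Eomes passed it only through Chronic Ethanol rats 1 and 4. Nhlh1 was chosen because it was lower in both ethanol-treated groups of these same rats, so its levels and fold changes are given as a description, with no test. The other 8 genes were tested as single genes within a model of all genes.

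RNA-Seq was performed on adult male Sprague Dawley wild-type rats in 3 groups of 6, and all of them received Lieber-DeCarli liquid diet as their only food and fluid. Control rats stayed on the diet without ethanol. Chronic Ethanol rats were brought up to a diet with 9% ethanol and kept on it for 16 days, and they were killed with no withdrawal. Withdrawal rats had the same 9% ethanol diet for 15 days and then the control diet for 24 h. The groups therefore model forced intake in males of a single strain at a single time after removal, and each sample is the dissected tissue with all of its cell types. In such bulk samples fewer cells of a type and less RNA per cell cannot be told apart.

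Nhlh1 and Nhlh2 encode the NSCL basic helix-loop-helix (bHLH) transcription factors, which are switched on as progenitors leave the cell cycle and become neurons. Proneural bHLH factors bind the E-box, the sequence CANNTG, usually as dimers with the widely expressed E proteins, and Id proteins block this pairing. In the adult hippocampus new granule neurons arise in the dentate gyrus, and they pass from Eomes-positive progenitors through a stage with Neurod1, Sox11, and Dcx, while Neurod2 and Neurod6 remain on in mature glutamatergic neurons.

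The sequence before the start of Nhlh1 and that of Nhlh2 are shown because Nhlh1 gives the group its name and Nhlh2 is its nearest relative. Each is the 250 bases before the start site in RefSeq, build GRCr8, read 5′ to 3′ on the strand of the gene, with every CANNTG in capitals. The Nhlh1 window is chr13:87054935-87055184 on the minus strand and that of Nhlh2 is chr2:192132598-192132847 on the plus strand.
Nhlh1: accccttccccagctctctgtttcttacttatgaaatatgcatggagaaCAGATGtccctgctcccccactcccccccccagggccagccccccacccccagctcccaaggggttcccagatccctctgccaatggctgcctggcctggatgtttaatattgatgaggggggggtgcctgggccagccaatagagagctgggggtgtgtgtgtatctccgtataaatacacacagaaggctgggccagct
Nhlh2: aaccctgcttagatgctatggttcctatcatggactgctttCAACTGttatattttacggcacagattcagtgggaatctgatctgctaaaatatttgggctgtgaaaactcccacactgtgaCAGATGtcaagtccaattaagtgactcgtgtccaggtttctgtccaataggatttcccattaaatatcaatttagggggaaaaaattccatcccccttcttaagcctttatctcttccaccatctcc

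Nhlh1 held 1 E-box, CAGATG, 201 bases before its start, and Nhlh2 held 2, namely CAACTG at 209 and CAGATG at 127 bases. CANNTG reads the same on both strands, so a search of one strand covers both. It was in the windows of 7 of the 9 genes, the exceptions being Eomes and Dcx, and in 65.5% of all 33469 promoter windows of this length. CAGATG, searched on both strands and itself a form of CANNTG, was in the windows of 4 of the 9 genes (Nhlh1, Nhlh2, Neurod2, and Neurod6) and in 14.0% of all windows. CAGCTG, another form of CANNTG, was in the window of Sox11 alone among the 9 genes and in 12% of all windows. Neurod6 held the most E-boxes, with 4, and Neurod2 held 3. These are matches of letters and show no binding.

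Counts assigned to genes totaled 30873228 to 42679748 per rat, with medians of 35298097 in control, 35649217 in ethanol, and 39044532.5 in withdrawal rats. In markers of hippocampal neurons and neighboring tissue Chronic Ethanol rat 1 and Withdrawal rat 5 stood apart. Withdrawal rat 1 did so in the neurogenic transcription factors other than the 9 genes. Its CA1 and thalamus sums were inside the ranges given below for the other rats. These 3 rats, called the rats that stood apart, were set aside in an alternative chosen after the data were seen. The summed level of the 4 CA1 pyramidal cell markers was 213.91 CPM (counts scaled to library size) in Chronic Ethanol rat 1 and 218.57 in Withdrawal rat 5, against 333 to 588 in the other rats. That of the 5 thalamus markers was 1310 CPM in Chronic Ethanol rat 1 against 180 to 747 in the other 17 rats. Chronic Ethanol rat 4, which was not set aside, had the 747 CPM of thalamus, the highest habenula sum, and the lowest sum of dentate granule cell markers. The 12 neurogenic transcription factors other than the 9 genes summed to 365 CPM in Withdrawal rat 1 and 328 in Withdrawal rat 5, against at least 468 elsewhere. Markers of the hippocampus were present in all rats, but Fibcd1 of CA1 and Npy of interneurons reached at most 2 counts and 1 count in any rat. For Npy this is not read as absence, since a gene model of nearly the same exon length lies next to it, also with at most 1 count, and no option to count pairs that map to several places was set. Library indexes put all 6 control rats in 1 index set of their own, the 6 ethanol rats and Withdrawal rats 1 and 2 in the second, and the other 4 withdrawal rats in the third. Control against the other groups and index set thus cannot be told apart. Counts were scaled by the trimmed mean of M-values (TMM), and levels below are in TMM CPM.

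Nhlh1, the neuronal bHLH factor that gives the group its name, had its highest levels in control rats and its lowest in withdrawal rats. Its place in Rnor_6.0 is chromosome 13 from 90437956 to 90443157 on the minus strand. In control rats it ranged from 7.96 to 11.9 CPM with a median of 8.93. In ethanol rats the range was 1.78 to 6.82 CPM with a median of 5.49, and in withdrawal rats it was 0.488 to 5.64 CPM with a median of 2.24. Every ethanol rat and every withdrawal rat lay below every control rat, whereas the ethanol and withdrawal rats overlapped. The overlap came from Chronic Ethanol rat 4 at 1.78 CPM and Withdrawal rat 2 at 5.64 CPM.

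The mean of Nhlh1 was 9.48 ± 1.63 CPM (SD, n = 6) in control, 4.89 ± 1.83 in ethanol, and 2.55 ± 1.73 in withdrawal rats. In the limma-voom model the log2 fold change was −0.94 (SE 0.30) between ethanol and control and −1.96 (SE 0.35) between withdrawal and control, that is 0.522 and 0.256 of the control level. Between withdrawal and ethanol it was −1.03 (SE 0.42). The first and second of these comparisons share the control rats. Because these differences chose the gene, nothing is read from the share of all genes in which every ethanol rat lay below every control rat (0.398%) or every withdrawal rat did (0.538%).

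The values of Nhlh1 with rats set aside or in other settings describe the differences it was chosen for and are no support for them. Without Chronic Ethanol rat 1 and Withdrawal rats 1 and 5 it was 5.11 ± 1.96 CPM (n = 5) in ethanol and 3.28 ± 1.61 CPM (n = 4) in withdrawal rats, and 5.64 CPM remained the highest withdrawal value against 7.96 CPM, the lowest in control. When single rats were left out, the log2 fold change of withdrawal over control ran from −2.35 to −1.71, and that of ethanol over control from −1.12 to −0.75. Over 16 other settings, which included 0, 1, 2, and 5 surrogate variables, edgeR, and DESeq2, these fold changes ran from −2.13 to −1.54 and from −1.11 to −0.70. Within the index set that withdrawal and ethanol rats share, Withdrawal rat 1 had 0.488 CPM and Withdrawal rat 2 had 5.64 CPM, the lowest and the highest of their group. The mean of these 2 rats was 3.06 CPM against 4.89 in the 6 ethanol rats, a difference of −1.37 in log2 CPM. It rested on Withdrawal rat 1, since Withdrawal rat 2 was above the ethanol median.

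**Figure D1:**
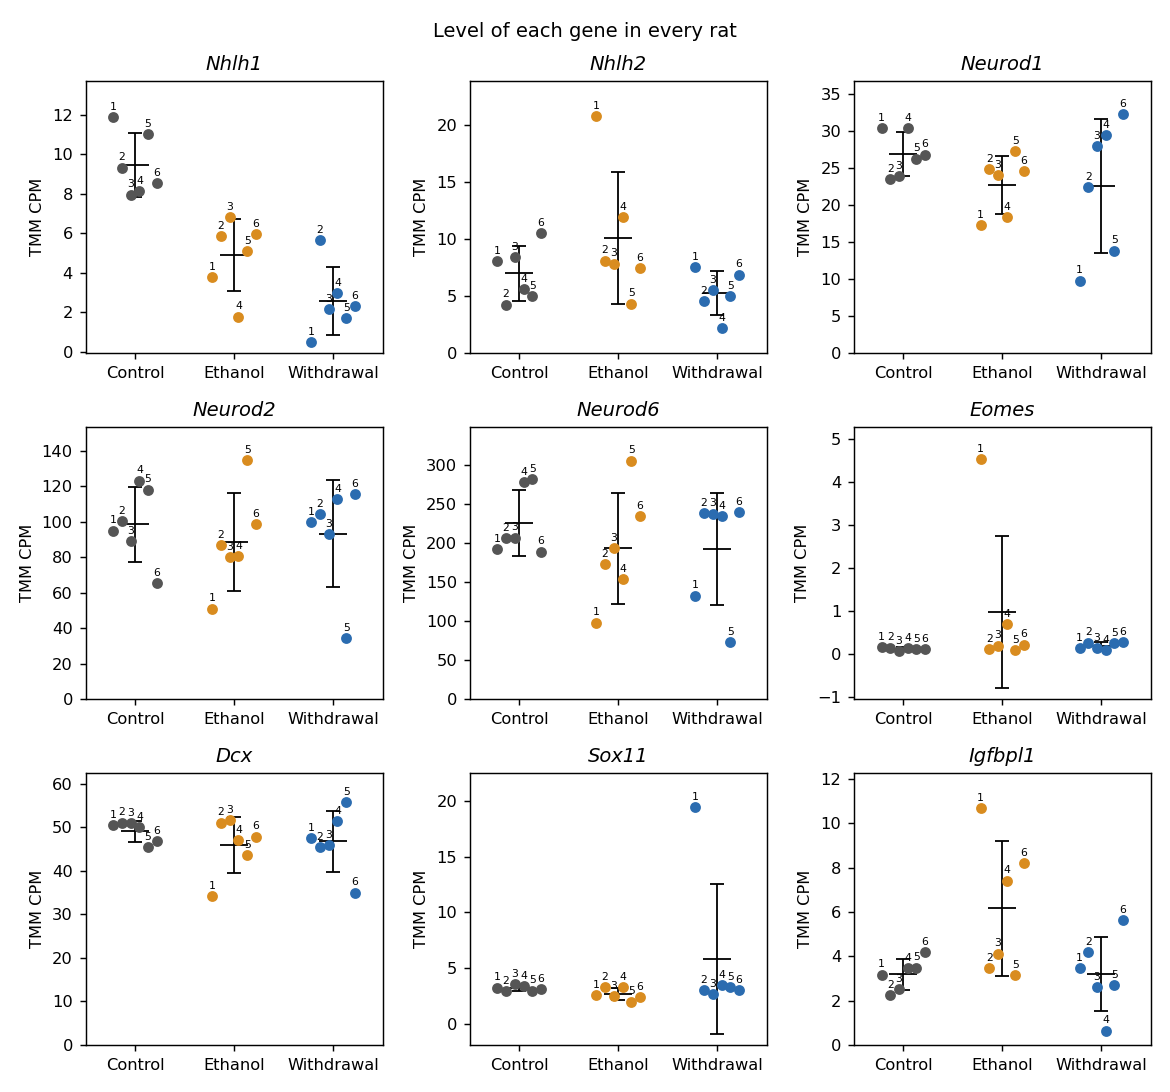
TMM CPM (vertical axes, linear) of the 9 genes in each of the 6 control, 6 ethanol, and 6 withdrawal rats. Points are rats, numbered as in the text, and the bars give the mean ± SD. For Nhlh1 all ethanol and withdrawal rats lie below the lowest control rat (7.96 CPM), while in the other 8 genes the groups overlap and single rats stand out, such as Withdrawal rat 1 in Sox11 (19.5 CPM) and Chronic Ethanol rat 1 in Eomes (4.54 CPM).

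The sums of the dentate and habenula markers varied between the same rats, and their part in the level of Nhlh1 was not tested. The 8 dentate granule cell markers, of which 6 were tested and Lct and Tdo2 were too low, summed to 235 to 290 CPM in control, 155 to 285 in ethanol, and 171 to 266 in withdrawal rats. Chronic Ethanol rat 4, the ethanol rat lowest in Nhlh1, was also lowest of all rats in these markers. Withdrawal rat 3 had 266 CPM of them, above the control median of 252 CPM, and 2.16 CPM of Nhlh1. Control rat 6 had 235 CPM of them and 8.52 CPM of Nhlh1. In the model 5 of the 6 tested dentate markers had negative log2 fold changes for withdrawal over control (median −0.11). None had q < 0.1 and 2 had an unadjusted p under 0.05 (limma-voom), beside 19.7% of all genes, namely Plk5 (−0.84, q = 0.104) and C1ql2 (−0.57, q = 0.104), both named after their values were seen. With the 3 surrogate variables edgeR called 0 of the 6 in this comparison and DESeq2 called 1, beside 1030 and 1624 of all genes. For ethanol over control 3 of the 6 were positive and 3 negative (median −0.0043), with 0 at an unadjusted p under 0.05 (limma-voom). The 5 medial habenula markers summed to 12.1 to 77.2 CPM in control, 12.7 to 101 in ethanol, and 11.7 to 43.5 in withdrawal rats, so they varied within each group. In the model, however, all 5 habenula markers had negative log2 fold changes for withdrawal over control (median −1.39) and for withdrawal over ethanol (median −1.23). For withdrawal over control 1 of them (Chrna3) had q < 0.1 and 4 had an unadjusted p under 0.05, beside 5.41% and 19.7% of all genes (limma-voom). With the 3 surrogate variables edgeR called 2 of them and DESeq2 called 1. For ethanol over control 4 were negative and 1 positive (median −0.16), with 0 at an unadjusted p under 0.05 (limma-voom).

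Nhlh2, the second NSCL factor, was not high or low in one group throughout. It lies on chromosome 2 from 204427577 to 204432946 on the plus strand. In control rats it ranged from 4.27 to 10.6 CPM with a median of 6.85, in ethanol rats from 4.36 to 20.8 CPM with a median of 8.00, and in withdrawal rats from 2.18 to 7.55 CPM with a median of 5.29. The groups overlapped. The highest rats were Chronic Ethanol rats 1 and 4 and Control rat 6, and the lowest was Withdrawal rat 4. The same 3 highest rats were the 3 highest in the summed thalamus markers, with 1310, 747, and 680 CPM, and each had over 70 CPM of the habenula markers, but the part of these tissues in Nhlh2 was not tested.

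In the model with 3 surrogate variables Nhlh2 was lower in withdrawal than in control rats (log2 fold change −0.35, SE 0.11, limma-voom q = 0.0968). It was the 1 gene of the 8 with q < 0.1 in this comparison, and 5.41% of all genes tested had such a q. The level itself did not separate the groups (7.0 ± 2.42 against 5.30 ± 1.90 CPM, n = 6 each; two-sided exact permutation p = 0.225 on log2 CPM), with 1 of 6 withdrawal rats above the control mean. The call of Nhlh2 was lost without surrogate variables (log2 fold change −0.44, limma-voom q = 0.689), and in edgeR with the 3 surrogate variables q was 0.104. It was kept in 3 of 16 other settings, among them DESeq2 with the 3 surrogate variables (q = 0.0471), and in 2 of the 18 fits that each left out 1 rat, namely those without Control rat 2 or Chronic Ethanol rat 5. Without the 3 rats that stood apart the log2 fold change was −0.25 (limma-voom q = 0.375), and −0.57 (q = 0.569) without them and without surrogate variables. Between withdrawal and ethanol the log2 fold change was −0.30 (SE 0.12, limma-voom q = 0.222), with none of the withdrawal rats above the ethanol mean (exact permutation p = 0.0584). This value depended on the setting: it was −0.87 without surrogate variables (q = 0.198), −1.02 with 1 (q = 0.0935), −0.93 in DESeq2 without them (q = 0.0709), and −0.45 without Chronic Ethanol rat 5 (q = 0.0601). For ethanol over control the value was −0.05 (SE 0.11, q = 0.904), a sign that turned positive without surrogate variables (0.43).

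Neurod1, the bHLH factor that newborn granule neurons need, was lowest in the 3 rats that stood apart and in Chronic Ethanol rat 4. It ranged from 23.5 to 30.4 CPM in control rats (median 26.5), from 17.3 to 27.2 CPM in ethanol rats (median 24.3), and from 9.80 to 32.3 CPM in withdrawal rats (median 25.2). Withdrawal rats 1 and 5, at 9.80 and 13.8 CPM, were below all others, and Withdrawal rat 6 was the highest of all 18 rats. The log2 fold change was −0.20 (SE 0.17, q = 0.672) between ethanol and control and −0.21 (SE 0.16, q = 0.472) between withdrawal and control by limma-voom. By exact permutation p was 0.0801 and 0.305 for these comparisons. Without the 3 rats the withdrawal mean was 28.0 ± 4.15 CPM (n = 4) against 26.9 ± 3.01 CPM (n = 6) in control, so that the direction depended on Withdrawal rats 1 and 5. The gene lies on chromosome 3 from 66414314 to 66417617, inside the span of another gene on the same strand with which it shares no exon bases.

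Neurod2 and Neurod6, the bHLH factors of mature glutamatergic neurons, were the most abundant of the 9 genes and did not differ between the groups beyond the spread of the rats. Neurod6 ranged from 189 to 281 CPM in control (median 206), from 98 to 305 CPM in ethanol (median 183), and from 73.1 to 239 CPM in withdrawal rats (median 236). Neurod2 ranged from 65.3 to 123 CPM in control (median 97.8), from 51.1 to 135 CPM in ethanol (median 83.8), and from 34.6 to 116 CPM in withdrawal rats (median 102). Both were lowest in Withdrawal rat 5 and next lowest in Chronic Ethanol rat 1, the rats with the lowest sums of CA1 markers. The other 4 withdrawal rats apart from rats 1 and 5 had nearly the same level of Neurod6, from 234 to 239 CPM. For Neurod6 the log2 fold change of withdrawal over control was −0.18 (SE 0.078, unadjusted p = 0.0302, limma-voom q = 0.204), and for Neurod2 it was −0.01 (SE 0.087, q = 0.954). The exact permutation p of the withdrawal against the control level was 0.355 for Neurod6 and 0.740 for Neurod2. Without the 3 rats the 4 withdrawal rats had 237 ± 1.92 CPM of Neurod6, above the control mean of 225 ± 42.4 CPM but inside the control range. Neurod6 lies on chromosome 4 from 85911861 to 85915107 and Neurod2 on chromosome 10 from 86280865 to 86282681.

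Eomes, the T-box factor of intermediate progenitors, was close to absent in most rats. Its counts ran from 2 to 160 with a median of 5. It ranged from 0.0507 to 0.153 CPM in control (median 0.119), from 0.0850 to 4.54 CPM in ethanol (median 0.197), and from 0.0838 to 0.266 CPM in withdrawal rats (median 0.186). Chronic Ethanol rat 1 held the value of 4.54 CPM, and Chronic Ethanol rat 4 at 0.692 CPM was the next, while the other 16 rats stood at 0.266 CPM or below. These 2 rats were those with the highest thalamus sums, and the part of that tissue was not tested. Because Eomes passed the filter through 2 ethanol rats, its differences from the ethanol group are a description with no test, with log2 fold changes of 0.39 (SE 0.47) for ethanol over control and 0.40 (SE 0.45) for withdrawal over ethanol. In edgeR without surrogate variables they were 3.05 and −2.36. For withdrawal over control it was 0.79 (SE 0.43, limma-voom q = 0.316; exact permutation p = 0.102). A median of 5 counts limits the precision of these values. The gene lies on chromosome 8 from 127144367 to 127152618.

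Dcx, a microtubule-associated protein of migrating and immature neurons, was the steadiest of the 9 genes over the rats. It ranged from 45.4 to 51.1 CPM in control (median 50.3), from 34.1 to 51.7 CPM in ethanol (median 47.5), and from 35 to 55.8 CPM in withdrawal rats (median 46.7). Chronic Ethanol rat 1 and Withdrawal rat 6 were low and Withdrawal rat 5 was the highest, which is the reverse of the place of rat 5 in Neurod2 and Neurod6. The log2 fold change of withdrawal over control was −0.15 (SE 0.061, unadjusted p = 0.0206, limma-voom q = 0.172), and between withdrawal and ethanol it was −0.17 (SE 0.068, q = 0.221). The first had q under 0.1 without Withdrawal rat 2 (−0.18, limma-voom q = 0.0976) and the second without Chronic Ethanol rat 5 (−0.20, limma-voom q = 0.0850). The levels gave exact permutation p = 0.522 and 0.814, and between ethanol and control the log2 fold change was 0.01 (SE 0.064, q = 0.955; exact permutation p = 0.297). Dcx lies on chromosome X from 115098675 to 115175515.

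Sox11, the SoxC factor of immature neurons that is also induced in injured neurons, stood between 1.98 and 3.55 CPM in 17 of the 18 rats. It ranged from 2.89 to 3.55 CPM in control (median 3.18), from 1.98 to 3.31 CPM in ethanol (median 2.52), and from 2.66 to 19.5 CPM in withdrawal rats (median 3.17). The value of 19.5 CPM was that of Withdrawal rat 1, the rat with the lowest Nhlh1 and Neurod1, and the highest of the other 17 rats was Control rat 3 at 3.55 CPM. The withdrawal mean of 5.82 ± 6.71 CPM rested on that rat, and without the 3 rats it was 3.03 ± 0.319 CPM (n = 4) against 3.19 ± 0.248 CPM in control. The log2 fold change of withdrawal over control was 0.42 (SE 0.33, limma-voom q = 0.508) with all rats and −0.08 without Withdrawal rat 1. Ethanol rats were slightly below control rats (2.66 ± 0.530 CPM; two-sided exact permutation p = 0.0476, 2 of 6 ethanol rats above the control mean), a difference that passed 0.05 in 2 of the 12 tests that each left out 1 rat (p 0.0216 to 0.0952) and that the model did not call (log2 fold change −0.16, SE 0.38, limma-voom q = 0.906). Sox11 lies on chromosome 6 from 46629967 to 46631988.

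Igfbpl1, a secreted IGF-binding-like protein made by neural progenitors and young neurons, was higher in 3 ethanol rats than in any control rat. It ranged from 2.26 to 4.19 CPM in control (median 3.32), from 3.14 to 10.7 CPM in ethanol (median 5.77), and from 0.642 to 5.64 CPM in withdrawal rats (median 3.08). Chronic Ethanol rats 1, 6, and 4, at 10.7, 8.20, and 7.41 CPM, and then Withdrawal rat 6 were the highest, and Withdrawal rat 4 was the lowest. The same 4 rats were the 4 highest in the summed choroid plexus and ependyma markers, at 5193, 4816, 3477, and 5190 CPM against 35 to 2360 CPM in the others. Withdrawal rat 4 had 36 CPM of them, but so had Withdrawal rat 5 with 35 CPM, where Igfbpl1 was 2.72 CPM. Of these 6 markers 5 were found, the sum is mostly transthyretin (Ttr), and the part of that tissue in Igfbpl1 was not tested. Ethanol rats were higher than control rats by the level (6.17 ± 3.06 against 3.18 ± 0.707 CPM; two-sided exact permutation p = 0.0498, 5 of 6 ethanol rats above the control mean) but not by the model (log2 fold change 0.31, SE 0.18, limma-voom q = 0.505). With each of these 12 rats left out, the p of the level stayed under 0.05 in 3 of 12 tests (0.0303 to 0.0996). Against withdrawal rats the log2 fold change was −0.20 (SE 0.19, q = 0.621) for withdrawal over ethanol, with none of the withdrawal rats above the ethanol mean (exact permutation p = 0.0714). Over 16 other settings the log2 fold change of Igfbpl1 ran from 0.26 to 0.95 for ethanol over control (lowest q 0.185) and from −1.02 to −0.10 for withdrawal over ethanol (lowest q 0.109), the larger values coming with 0 or 1 surrogate variables. Igfbpl1 lies on chromosome 5 from 61395407 to 61410812.

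Over the 8 tested genes other than Nhlh1, 1 had q < 0.1 for withdrawal over control (limma-voom), and none did for ethanol over control or withdrawal over ethanol, where 0.493% and 2.72% of all genes did. At an unadjusted p under 0.05 the counts were 3, 0, and 2 of the 8, beside 19.7%, 12.5%, and 16.7% of all genes. No member other than Nhlh1 had groups that did not overlap, beside 1.06%, 1.32%, and 1.22% of all genes in the same order of comparisons. With the 3 surrogate variables edgeR called 0 of the 8 in all 3 comparisons, and DESeq2 called 1, 0, and 0. Of all 17853 genes edgeR called 1030, 96, and 532 and DESeq2 called 1624, 473, and 1176. The median log2 fold change of the 8 genes was −0.084, −0.018, and −0.056 for withdrawal over control, ethanol over control, and withdrawal over ethanol, beside 0.0003, 0.0005, and −0.0002 over all genes. Without Eomes, whose passing of the filter rested on ethanol rats, the counts over the other 7 were the same (1, 0, and 0 with q < 0.1, and 3, 0, and 2 at an unadjusted p under 0.05), and the medians were −0.15, −0.048, and −0.086. Of the 21 exact permutation tests of levels in these 7 genes, 2 gave an unadjusted p under 0.05, those of Sox11 and Igfbpl1 between ethanol and control, and neither stayed under 0.05 without the 3 rats. The share of all genes that pass this test is not given here, so the count of 2 is not read as a result about the members. The smallest p that 6 against 6 rats allow is 0.00216.

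**Figure D2:**
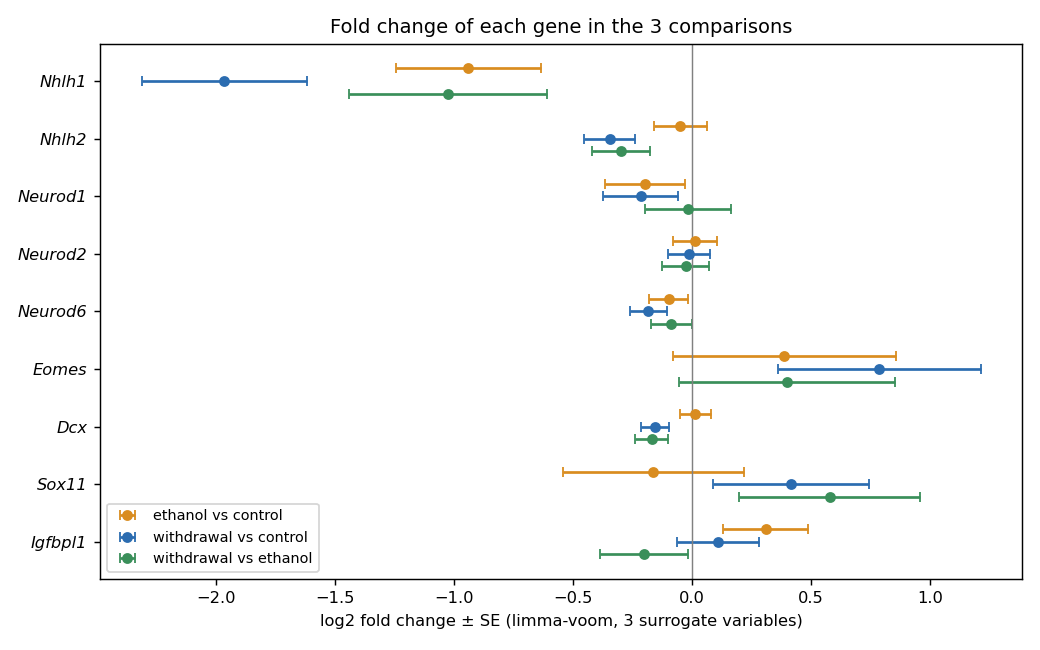
log2 fold change ± SE (horizontal axis) of each gene in the 3 comparisons, from limma-voom with 3 surrogate variables and 6 rats a group. Nhlh1, chosen for these differences, lies at −0.94, −1.96, and −1.03, and Nhlh2 at −0.35 is the 1 other gene with q < 0.1, between withdrawal and control.

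Per kilobase of exon the order in control rats was Neurod6, Neurod2, Neurod1, Dcx, Nhlh1, Igfbpl1, Sox11, Nhlh2, and Eomes. The mean level fell from 115 ± 21.7 CPM per kb for Neurod6 and 54.4 ± 11.6 for Neurod2 to 14.8 ± 1.65 for Neurod1 and 5.16 ± 0.254 for Dcx. Nhlh1 was at 3.71 ± 0.636 CPM per kb, above Igfbpl1 (2.39 ± 0.532) in 6 of 6 control rats. Sox11 (1.58 ± 0.122) and Nhlh2 (1.41 ± 0.486) did not differ beyond their spread, with Sox11 higher in 4 of 6 rats, and Eomes was far below at 0.0280 ± 0.00875. In ethanol rats Nhlh1 (1.91 ± 0.718) stood at place 7 by the mean, where it did not differ beyond the spread from Nhlh2 (2.03 ± 1.16), which was higher than Nhlh1 in only 2 of 6 rats (Chronic Ethanol rats 1 and 4). In withdrawal rats it was at place 8 with 0.998 ± 0.676 CPM per kb, next to Nhlh2 at 1.07 ± 0.382, and 4 of 6 rats had more Nhlh2 than Nhlh1. Dcx and Igfbpl1 also overlapped in ethanol rats, where Dcx was higher in 3 of 6.

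**Figure D3:**
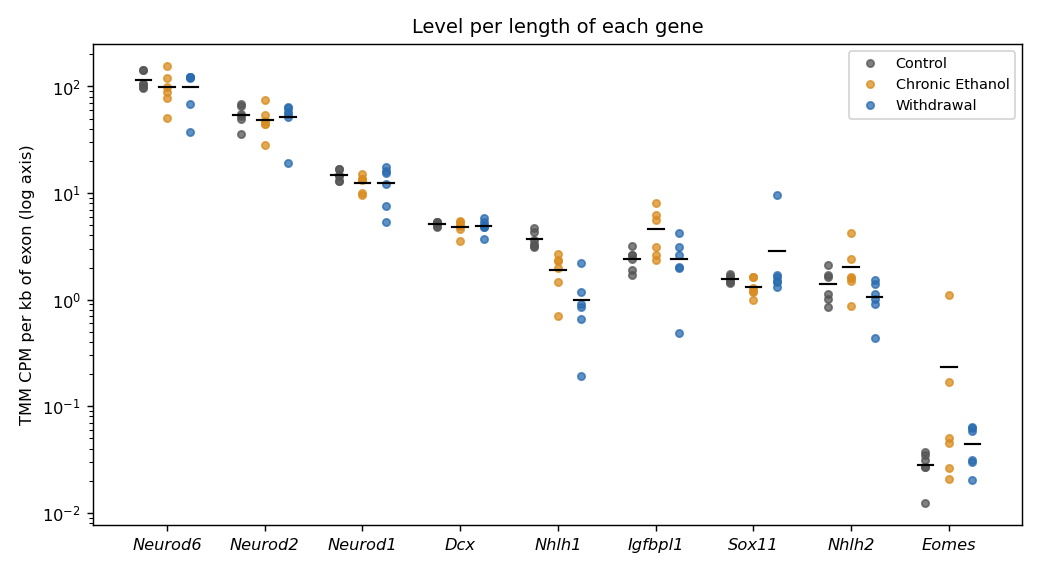
Level per length (TMM CPM per kb of exon, logarithmic axis) of the 9 genes, ordered by the control mean. Points are the 6 rats of each group and lines are the means, and Nhlh1 moves from 3.71 in control to 0.998 CPM per kb in withdrawal rats while the order of the genes from Neurod6 to Dcx is the same in all groups.

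Over the 18 rats the genes most like Nhlh1 in log2 CPM, among all tested genes outside the 9, were Pla2g6, which encodes a phospholipase A2 (Pearson r = 0.920), the gene listed as GeneID:103692676 without a name (0.913), Clec12b, a C-type lectin (0.909), Sri, which encodes the calcium-binding protein sorcin (0.907), and Ankdd1a (0.878). These values describe 18 libraries that share their groups and index sets. With the group means removed r was 0.875, 0.911, 0.764, 0.832, and 0.800, and without Withdrawal rats 1 and 5, the rats farthest from the median of Nhlh1, it lay between 0.789 and 0.856. Pla2g6 had 38.2 ± 1.13 CPM in control and 33 ± 2.74 CPM in withdrawn rats, so its range was far smaller than that of Nhlh1. Within the 9 genes Neurod1 was the most like Nhlh1 (r = 0.683) and Sox11 the least (−0.625). Both rested on Withdrawal rats 1 and 5, since r was 0.19 and 0.058 without them. Nhlh2, the nearest relative of Nhlh1, gave −0.032, and −0.45 with the group means removed.

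**Figure D4:**
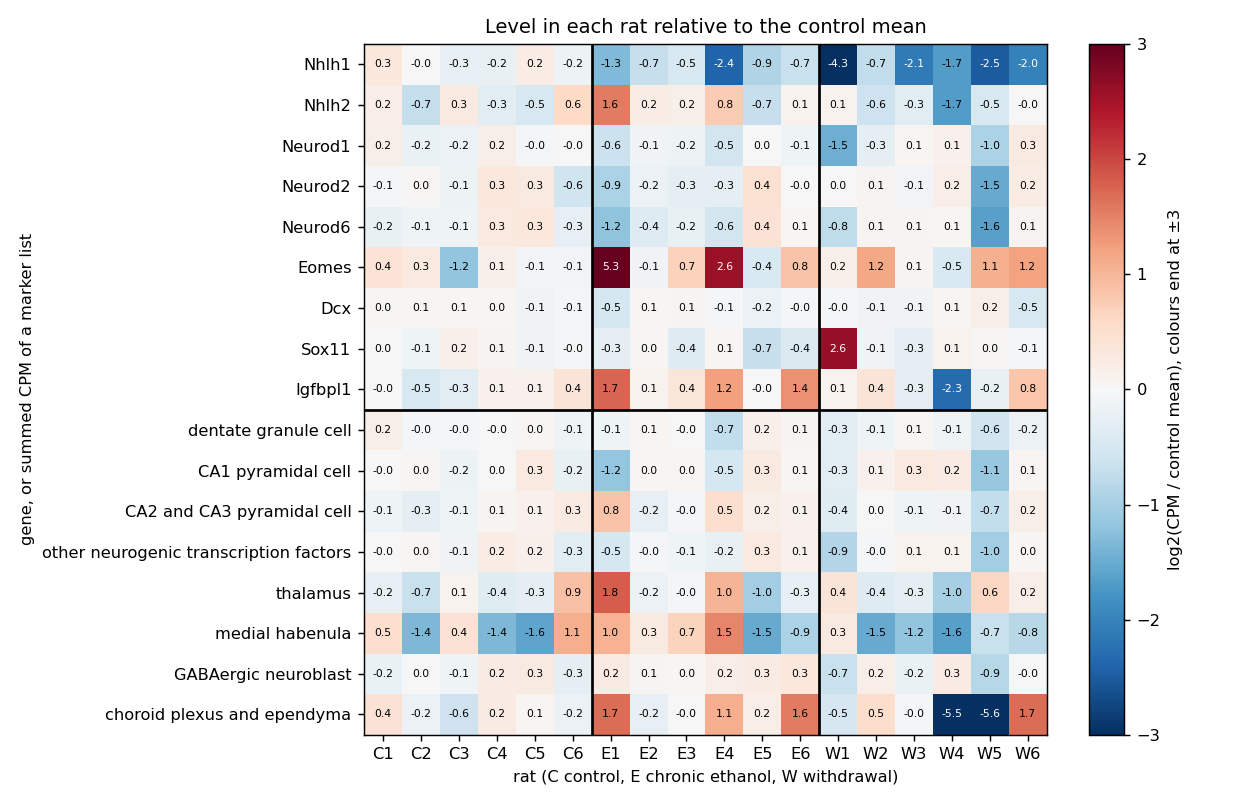
log2 of the level in each rat over the mean of the control rats, for the 9 genes (above the line) and for the summed CPM of 8 marker lists (below it). Columns are the 18 rats, numbers in the cells give the value, and colors end at ±3. Nhlh1 is below the control mean in all ethanol and withdrawal rats, whereas the extremes of Eomes, Neurod2, and Sox11 fall in single rats, Igfbpl1 is high in Chronic Ethanol rats 1, 4, and 6, and the choroid plexus and ependyma sum is near absent in Withdrawal rats 4 and 5.

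Other genes of neurogenesis and markers of the cell types of this and neighboring tissue were taken from 18 lists, of which 121 genes were tested. Of these, 9 (7.44%) had q < 0.1 for withdrawal over control, 2 (1.65%) for ethanol over control, and 5 (4.13%) for withdrawal over ethanol by limma-voom, beside 5.41%, 0.493%, and 2.72% of all genes. None of the 8 radial glia and progenitor genes and none of the 12 cell division genes had q < 0.1 in any comparison (limma-voom), with median log2 fold changes of 0.10 and 0.09 for withdrawal over control. At an unadjusted p under 0.05 in that comparison there were 4 progenitor and 2 cell division genes, beside 19.7% of all genes (limma-voom). All 6 had positive values, namely Sox2 (0.15), Notch1 (0.16), Hes1 (0.34), Fabp7 (0.29), Pcna (0.14), and Mcm5 (0.62), named after their values were seen. Over the lists 5 progenitor genes were higher and 3 lower, and 9 cell division genes higher and 3 lower. With the 3 surrogate variables edgeR called 0 of either list, and DESeq2 called 2 and 1, beside 1030 and 1624 of all genes. Fabp7, the most abundant progenitor gene per length, was at 70.8 ± 6.34 CPM in control and 84.8 ± 21.6 in withdrawal rats, and Pcna was the most abundant cell division gene. Of the 11 tested transcription factors of the neurogenic list, Prox1, the granule cell factor, was lower in withdrawal than in control rats (log2 fold change −0.26, SE 0.080, limma-voom q = 0.0968), from 129 ± 11.8 to 103 ± 34 CPM. The groups overlapped, at 52.9 to 147 CPM (median 114) in withdrawal and 117 to 148 CPM (median 128) in control rats. The sum of its list was lowest in Withdrawal rats 1 and 5. The median over the list was −0.081 for withdrawal over control. Bhlhe22 was the most abundant of them per length. Among 19 immature neuron genes Cd24, a surface glycoprotein, was the 1 with q < 0.1 and rose over control in ethanol (0.38, SE 0.055, q = 0.0359) and in withdrawal (0.27, SE 0.052, q = 0.0203). The log2 fold change was negative in 13 of the 19 genes for ethanol over control (median −0.063) and in 11 for withdrawal over control (median −0.012). For ethanol over control 5 of the 19 had an unadjusted p under 0.05, beside 12.5% of all genes (limma-voom). The 4 besides Cd24, named after their values were seen, had negative values, namely Tubb2b (−0.23), Dpysl3 (−0.23), Dpysl5 (−0.33), and Calb2 (−0.25).

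Of the 7 E protein and Id genes, the partners and blockers of proneural bHLH factors, Id1 rose in ethanol over control rats from 12 ± 1.82 to 16.4 ± 0.939 CPM (log2 fold change 0.49, SE 0.10, limma-voom q = 0.0834). In withdrawal rats Id1 was at 12.9 ± 1.51 CPM, below ethanol rats (−0.38, SE 0.11, q = 0.0950). Id3 was also lower in withdrawal than in ethanol rats (−0.39, SE 0.074, q = 0.0317), at 37.8 ± 3.22 against 51.6 ± 5.06 CPM. The most abundant of the list per length was Id2, at 52.5 ± 3.49 CPM in control rats. None of the tested dentate granule cell, CA1, CA2 and CA3, thalamus, neocortex, GABAergic neuroblast, choroid plexus and ependyma, microglia, or oligodendrocyte markers, 45 genes in all, had q < 0.1 in any comparison by limma-voom. These lists are named together because none of their genes had such a q. At an unadjusted p under 0.05 there were 10 of them for withdrawal over control, 7 for ethanol over control, and 11 for withdrawal over ethanol, beside 19.7%, 12.5%, and 16.7% of all genes (limma-voom). With the 3 surrogate variables edgeR called 0, 1, and 0 of them and DESeq2 called 4, 2, and 4. Of all 17853 genes edgeR called 1030, 96, and 532 and DESeq2 called 1624, 473, and 1176. Of the interneuron markers Gad2 rose in withdrawal over ethanol rats (0.35, SE 0.083, q = 0.0578). In withdrawal over control rats Chrna3 of the habenula list fell in the model (−2.01, SE 0.55, q = 0.0645). Its levels overlapped, at 0.412 to 25.9 CPM in control and 0.586 to 10.1 CPM in withdrawal rats. Also lower in withdrawal than in control rats were Aldh1l1 (−0.41, q = 0.0487) and Gja1 (−0.13, q = 0.0866) of the 5 astrocyte markers. Gfap, the astrocyte filament gene, rose (0.54, q = 0.0775, and over ethanol rats by 0.74, q = 0.0578), as did 3 of 4 endothelial cell markers, namely Pecam1, Flt1, and Slco1c1, by 0.34, 0.28, and 0.25. The most abundant genes per length of the other lists were Stmn1, C1ql3, Wfs1, Pcp4, Gad1, Prkcd, Tac3, Etv1, Dlx1, Ttr, C1qa, Mbp, and Cldn5.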

How the data were processed

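Dorsal hippocampus RNA of 18 rats, 6 per treatment label, was sequenced as paired ends from stranded mRNA libraries. Per the labels, the authors aligned reads to Rnor_6.0 (STAR 2.5.2a) and deposited raw read counts per gene, made with featureCounts 1.5.0. Per the file headers, read pairs were counted on exons by gene, with the reverse strand setting that fits the stranded kit. Chimeric pairs were left out, and no option to count pairs that map to several places or overlap several genes was set. Gene IDs were matched to RefSeq names (29322 of 38445). No 2 rats of a group agreed within sampling noise.

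Genes that 1 rat or more had above 0.5 CPM after TMM scaling (edgeR 4.0.16) entered limma-voom (limma 3.58.1) in 1 model of all 18 rats with 3 surrogate variables (sva 3.50.0). The number of surrogate variables was not given in the sources used here. q is the Benjamini-Hochberg value over the 17853 genes tested, with a threshold of 0.1. Levels were compared by two-sided exact permutation tests on log2 CPM with prior count 2 (scipy 1.17.1). Fold changes of genes with few counts depend on such offsets. The fit was also run on simulated counts that held no hidden difference between rats, so that run cannot test the choice of surrogate variables. The members and gene lists were chosen with earlier results of these data known.

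Named were the 9 genes, list genes with q < 0.1 (at most 4 a list), the most abundant gene of each list per length, and the 5 genes most correlated with Nhlh1. Of these, 1 list gene is not reported here. Alternatives were other numbers of surrogate variables, edgeR, DESeq2 1.42.0, other scaling and filters, only the groups compared without surrogate variables, the replicate number as a block, each rat left out, and, chosen after the data were seen, 3 rats left out. Replicate numbers are shared by different animals. The animals are separate, so the permutation p measures the spread of levels between rats. The limma-voom p measures the spread left after the surrogate variables, with the estimate of that spread shared over genes. Counts of 30873228 to 42679748 per rat limit the precision of genes such as Eomes, and replication of 6 limits the rest.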

Additional observations from a re-analysis of the deposited data

Results flagged for a closer look

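In the 27 sets of 6 rats (9 genes in 3 groups), 3 had an extreme rat whose gap to its nearest neighbor over the whole range of the group passed the critical value of Dixon's test at 95%, where chance gives about 1 in 20. The sets include those of Nhlh1, chosen for its values, and the Eomes flag is the high value through which Eomes passed the filter. The count of 3 is therefore a description and is not read against that rate. Neurod2 was 34.6 CPM in Withdrawal rat 5, a gap of 0.720 of the range. Eomes was 4.54 CPM in Chronic Ethanol rat 1, a gap of 0.864 of the range. Sox11 was 19.5 CPM in Withdrawal rat 1, a gap of 0.954 of the range. Each of these is one of the 3 rats set aside. Of them, Withdrawal rat 1 stood apart in the sum of neurogenic transcription factors, not in those of CA1 or thalamus markers.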

How the results depend on the processing

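The groups of 6 rats, the index sets, and the few counts of Eomes limit these results. Fold changes of Nhlh1, chosen for them, are not read as stable or unstable. Signs of several uncalled genes turned, some by more than their SE, and no cause was tested. Counts of genes with q < 0.1 (965, 88, and 486 for withdrawal over control, ethanol over control, and withdrawal over ethanol) were 41 and 50 for the first and second without surrogate variables, 112, 258, and 1492 with 1, 594 for the first and 260 for the last with 2, and 262, 322, and 871 with 5. In edgeR without surrogate variables the first was 33. In DESeq2 the counts were 435, 431, and 1443 without and 1624, 473, and 1176 with 3 surrogate variables. Without a filter on low counts they were 486, 9, and 166, and with 1 CPM in 6 rats the second was 171. With only the groups compared and also no surrogate variables, limma-voom gave 0, 55, and 0 (2082, 2479, and 2439 at unadjusted p under 0.05). At q < 0.05 they were 370, 10, and 112. Without the 3 rats that stood apart they were 396 and 532 for the first and second with 3 surrogate variables, and 0 and 116 for the first and last with none (1856 genes at unadjusted p under 0.05 in the first).

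Of the 8 tested genes, the 1 called between withdrawal and control became 0 in these settings, except with RLE size factors and in DESeq2 with 3 surrogate variables (1 each) and the block below, and also in edgeR with 3 and at q < 0.05. Between withdrawal and ethanol 1 gene, Nhlh2, was called with 1 surrogate variable and in DESeq2 without any. With each rat left out, genes with q < 0.1 numbered 23 (without Withdrawal rat 6) to 1911 (without Withdrawal rat 2) for withdrawal over control, 0 (without Control rat 4) to 258 (without Chronic Ethanol rat 5) for ethanol over control, and 0 (without Chronic Ethanol rat 2 or 3 or Withdrawal rat 6) to 1800 (without Chronic Ethanol rat 5) between withdrawal and ethanol. At an unadjusted p under 0.05 the fits with 0 still had 1989 genes for ethanol over control and 1917 to 2178 for withdrawal over ethanol (limma-voom). Called members numbered 0 to 1, 0, and 0 to 2. Members with an exact permutation p under 0.05 numbered 0 to 1, 0 to 3, and 0 to 2, and 0 between ethanol and control without the 3 rats, against 0, 2, and 0 with all rats. These counts include Eomes, which is the 1 of the first comparison and was under 0.05 in 1 of 12 tests between ethanol and control, where it is a description.

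The replicate numbers do not pair the rats, which are different animals: 4 of 18 pairs with the same number had a correlation of deviations over 0.1 (−0.325 to 0.383). With the number as a replicate block and 3 surrogate variables, 941, 33, and 1 genes had q < 0.1, and 2 members between withdrawal and control (Nhlh2 and Neurod6). With the block and no surrogate variables the counts were 0, 0, and 14 (limma-voom, 1839 and 1847 at unadjusted p under 0.05 for the first and second), with 0 members.

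Signs of log2 fold changes turned as follows, the order of settings being without surrogate variables, with only the groups compared and none, with the block and none, in edgeR and DESeq2 without them, with 1, and without the 3 rats and with none. Between ethanol and control Nhlh2 was 0.43, 0.43, 0.46, 0.53, 0.53, 0.45, and 0.20. Neurod2 was −0.18, −0.18, −0.18, −0.15, −0.15, −0.20, and −0.029, and −0.055 with 2, −0.028 with 5, −0.037 with 1 CPM in 6 rats, and −0.012 without the 3 rats. Dcx was −0.11, −0.11, −0.11, −0.098, −0.10, −0.11, and −0.024. Sox11 was 0.081 with the block and 3. Between withdrawal and ethanol Eomes was −0.92, −0.92, −1.47, −2.36, −2.39, −1.04, and −0.23. Neurod2 was 0.034, 0.036, 0.034, 0.075, 0.075, 0.23, and 0.165, and 0.0058 without a filter. Dcx was 0.025, 0.028, 0.025, 0.028, and 0.029 in the first 5. Neurod6 was 0.20 in the last 2. Neurod1 was 0.091 with 1, 0.055 with 5, 0.15 without the 3 rats, and 0.23 without them and with none. Between withdrawal and control Igfbpl1 was −0.18, −0.19, and −0.069 in the first 3, −0.17 with 1, −0.088 with 5, −0.11 without the 3 rats, and −0.25 without them and with none. Neurod1 was 0.0051 and 0.056, Sox11 −0.00025 and −0.081, without the 3 rats with 3 and with none. Neurod2 and Neurod6 were 0.14 and 0.093 without the 3 rats and with none. Sox11 was −0.042 with 5. Neurod2 was 0.029 with 1, 0.0020 in edgeR and 0.0011 in DESeq2 with 3, and 0.032 without a filter.

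With each rat left out the ranges that crossed 0 were −0.11 to 0.085 for Neurod2, −0.077 to 0.77 for Sox11, and −0.022 to 0.26 for Igfbpl1 for withdrawal over control. For ethanol over control they were −0.013 to 0.052 for Neurod2, −0.16 to 0.57 for Eomes, −0.013 to 0.066 for Dcx, and −0.29 to 0.048 for Sox11. Between withdrawal and ethanol they were −0.22 to 0.13 for Neurod1 and −0.10 to 0.059 for Neurod2.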
